A study of Mus musculus with 6 samples.

Results

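The reads that fell on microRNA annotations were followed in an eCLIP experiment on Strep-tagged mouse Gtsf1 (Asterix) in P19 cells, a mouse embryonal carcinoma line. Every feature that the files class as miRNA or pri-miRNA and that held at least 10 reads summed over the 6 libraries was taken. These were 94 features (64 miRNA and 30 pri-miRNA) of 855 in these classes with any read, and of 1753368 features of all classes. The features nearest the limit were miR-302d-3p and Gm44462, with 10 reads each, and Gm47293, just outside it with 9.5. All cells had been transfected, 48 h before harvest, with Gtsf1 carrying a C-terminal TEV-Strep tag, expressed transiently from pEF under the EF-1alpha promoter, and this holds for the controls too. The groups were crosslinked pull-down and crosslinked input, irradiated at 254 nm (n = 2 each), and non-crosslinked pull-down and non-crosslinked input, without irradiation (n = 1 each). RNase I trimmed the RNA before MagStrep beads bound the tag, and input libraries were made from the lysate itself. No pull-down from cells without the tag was analysed here, and the labels do not say whether libraries of one group came from separate cultures, so p-values measure only the spread between these libraries. Library totals ranged from 13168593 to 18418166 reads, so that 1 read was worth 0.0543 to 0.0759 RPM (the count scaled to 1e6 reads of the library). Of 8 embryonal carcinoma markers, 7 had reads in every input. Together they had 94.2 to 136 RPM over the inputs and 64.2 to 99.7 RPM over the pull-downs, led by Pou5f1, Lin28a and Dnmt3b. In the inputs Nanog had 0.431 to 1.12 RPM, Zfp42 only 0.0463 to 0.0787 RPM and Dppa5a 0 to 0.0543 RPM. The 3 endoderm markers summed to 0.517 to 1.44 RPM over the inputs and 3.34 to 6.22 RPM over the pull-downs, with Sox17 at 0 in every input. The 2 blood markers summed to 0.267 to 0.445 and 0.447 to 1.16 RPM, with Hbb-bs at 0 in every input. The 3 neural markers summed to 3.31 to 3.58 and 2.37 to 4.78 RPM, and the 3 mesenchymal ones to 1.41 to 1.82 and 1.72 to 2.33 RPM. The part of these markers' RNAs in the results was not tested.

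MicroRNAs are cut from hairpins in longer primary transcripts, first by Drosha with Dgcr8 in the nucleus and then by Dicer1 in the cytoplasm, and the mature strand guides an Argonaute protein to messenger RNAs. Target choice rests mainly on the seed, bases 2 to 8 from the 5′ end. Pluripotent mouse cells are known for the miR-290 to miR-295 and the miR-302 and miR-367 clusters. Gtsf1 is a small zinc-finger protein needed for the silencing of transposons by piRNAs, a separate class of small RNAs. Some entries of microRNA catalogues overlap genes of other small RNAs, such as tRNAs and small nucleolar RNAs, so a read on such an entry can come from either RNA.

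Sequences were taken from RefSeq (GRCm38.p6, the build named mm10 in the submitters' processing notes), in which 10 of the 64 miRNA members matched a mature name and 28 of the 30 pri-miRNA members a hairpin. The first set is shown because these microRNAs, all but miR-1961 of well-known clusters, held reads in the pull-downs and, with the exception of mir-1961 and of 1 read on mir-92a-2, none in the inputs. Capitals mark the seed. For mir-92a-2 and mir-1961, which were counted as pri-miRNA, the mature strand of the locus is printed.
miR-302b-3p: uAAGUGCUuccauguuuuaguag
miR-302d-3p: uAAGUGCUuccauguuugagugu
miR-367-3p: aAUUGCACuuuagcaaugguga
miR-92a-3p: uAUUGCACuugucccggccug
miR-1961: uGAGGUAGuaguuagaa
miR-302b-3p and miR-302d-3p share 1 seed, which the table gives to 5 mature names, miR-291a-3p, miR-294-3p and miR-295-3p among them. miR-367-3p and miR-92a-3p share a second seed, found in 6 mature names. The seed of miR-1961, which was in none of the family lists, is that of let-7, found in 11 mature names. The 3 cluster members lie at chr3:127545275-127545297, chr3:127545665-127545687 and chr3:127545779-127545800 on the + strand, within the span of Larp7.

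The second set holds entries named as microRNAs whose crosslinked pull-down and input values did not overlap, again with the seed in capitals. Whether their reads came from other RNAs of similar sequence was not tested. Only the hairpin of miR-3535 was counted, as mir-3535, and for miR-5100 no difference was called.
miR-6239: uAGCGUUGgaucacucggug
miR-2137: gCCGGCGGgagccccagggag
miR-3963: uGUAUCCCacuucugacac
miR-5100: uCGAAUCCcagcggugccucu
miR-3535: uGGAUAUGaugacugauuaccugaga
No seed of this set was shared with another of the 5. The seed of miR-6239 occurs in 2 mature names of the table and the other 4 seeds in 1 each. miR-2137 has 85.7% G and C, against a median of 52.2% over the 1679 mature names, and 0.477% of the names reach that value. The sequences lie at chr14:117953768-117953787 (miR-6239, within Gpc6), chrX:72992113-72992133 (miR-2137, within Zfp185), chr3:151023839-151023857 (miR-3963, in no other RefSeq gene), chr11:60728698-60728718 (miR-5100, within Mief2) and chr1:86352062-86352087 (miR-3535, within Ncl).

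The third set holds 3 hairpins counted as pri-miRNA that share their locus with another feature of interest. In mir-1983 the capitals mark the bases that belong to the tRNA gene n-TItat14, and in mir-5126 and mir-1843b they mark the mature strand.
mir-1983: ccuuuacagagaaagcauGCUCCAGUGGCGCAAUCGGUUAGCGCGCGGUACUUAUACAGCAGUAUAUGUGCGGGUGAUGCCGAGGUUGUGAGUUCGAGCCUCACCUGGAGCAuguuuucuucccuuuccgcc
mir-5126: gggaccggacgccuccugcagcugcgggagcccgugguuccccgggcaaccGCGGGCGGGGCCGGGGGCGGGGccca
mir-1843b: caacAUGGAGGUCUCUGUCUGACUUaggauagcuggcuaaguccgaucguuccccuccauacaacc
The mir-1983 hairpin (chr13:21896918-21897049, - strand) contains all 94 bases of n-TItat14, with 18 bases before and 20 after it. The mature miR-1983 strand takes 13 of its 21 bases from the 3′ end of the tRNA gene and 8 from the sequence that follows. mir-5126 (chr1:84695839-84695915, + strand) lies within Dner, and its mature strand is the only one of the table made of G and C alone. mir-1843b (chr1:159340358-159340423, + strand) lies whole inside Scarna3a, a small Cajal body RNA gene, and within Cop1.

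Most reads of the miRNA class were on features without a microRNA name. Gm-numbered features, gene models known by number alone, were 49 of the 64 miRNA members and held 89.9% of the reads of all 94 members. Of the 49, 1 matched a RefSeq gene by symbol, Gm24105, a long noncoding RNA there, so their sequences and positions are not given. What RNAs the others are was not settled, and a Gm number does not exclude a microRNA, since RefSeq lists mir-3535 as Gm24148. Gm47295 and Gm47299 alone held 84.0% and 82.1% of the miRNA class in the crosslinked inputs and 92.6% in the non-crosslinked input. In the pull-downs their part was 46.9%, 48.01% and, without crosslinking, 48.1%. The counts of this pair differed by at most 1.53% in any library, and many of them are fractions of reads, so they may hold the same reads, although each is counted as a member in the tallies. Snord43, a small nucleolar RNA gene, and n-TSaga9 and n-TStga1, tRNA genes in RefSeq, are also classed as miRNA in the files. Only 12 miRNA members bear the name of a microRNA.

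**Figure D1:**
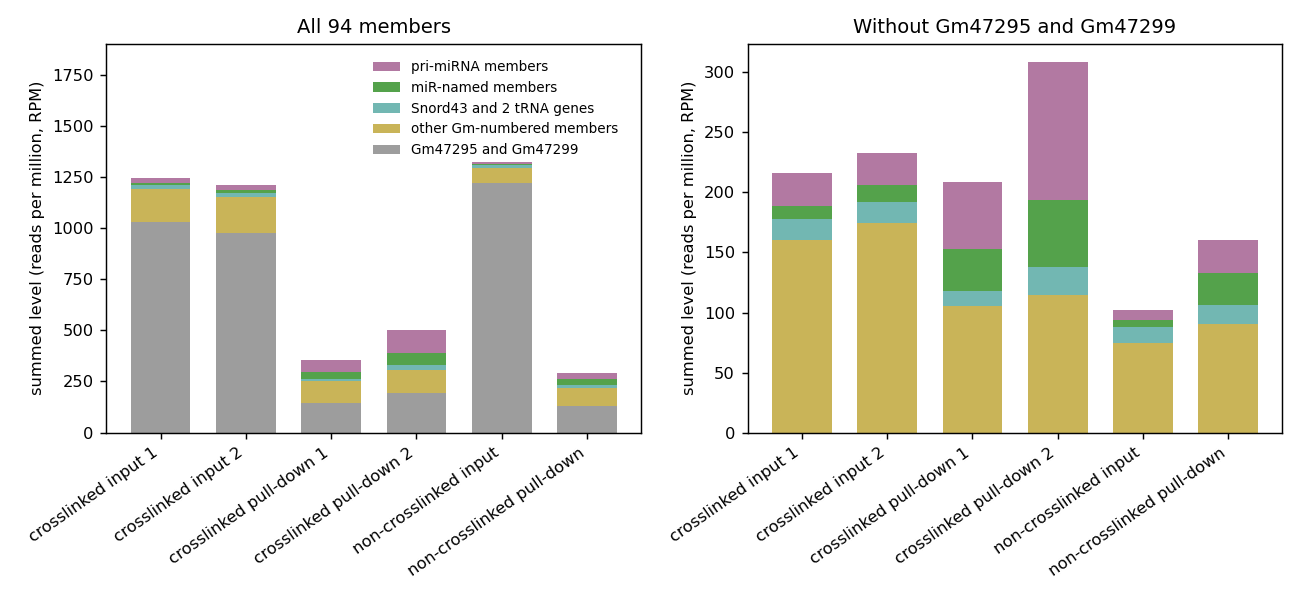
Summed level of the 94 members in each of the 6 libraries, in RPM, stacked by kind of feature; the right panel leaves out Gm47295 and Gm47299 and has its own scale. The grey part is 1031 and 977 RPM in the crosslinked inputs and 146 and 194 RPM in their pull-downs, whereas the green and purple parts are larger in each pull-down than in its inputs.

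The miRNA class as a whole had a lower share in the pull-down, while its features named as microRNAs had a higher one. It held 21425 and 21925 reads in the crosslinked inputs (0.123%, 95% Wilson interval 0.121 to 0.124%, and 0.119%, 0.117 to 0.121%). The crosslinked pull-downs held 5004 and 6390 reads (0.0310%, 0.0302 to 0.0319%, and 0.0404%, 0.0394 to 0.0414%). The non-crosslinked input held 18648 reads (0.132%, 0.130 to 0.134%) and its pull-down 3517 (0.0267%, 0.0258 to 0.0276%). The pull-down over input ratio was 0.295 with and 0.203 without crosslinking, and both crosslinked pull-downs lay below both inputs. Leaving out the dominant pair, keeping only features named as microRNAs, and dropping miR-3963 and miR-6239 from these were chosen after seeing the data. Without Gm47295 and Gm47299 the class stood at 196 and 213 RPM in the crosslinked inputs and 165 and 210 RPM in the pull-downs, a ratio of 0.916 in which the groups overlapped. In the non-crosslinked libraries the same remainder was higher in the pull-down, at 139 against 97.2 RPM, a ratio of 1.43 (95% interval 1.33 to 1.53). The 177 features of the class named as microRNAs had 11.8 and 15.1 RPM in the inputs and 39.3 and 61.7 RPM in the pull-downs, a ratio of 3.77. miR-3963 and miR-6239 carried much of it, and without them the level was 7.36 and 14.0 RPM in the inputs and 19.8 and 24.1 RPM in the pull-downs, a ratio of 2.06. Without crosslinking they had 6.04 and 29.8 RPM, a ratio of 4.94 (3.88 to 6.28), and of 4.42 (3.22 to 6.05) without that pair. All intervals here describe counting error alone, and whether PCR copies of a molecule were collapsed is not given in the sources used here.

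The pri-miRNA class was higher in the pull-down. With crosslinking the inputs held 554 and 575 of its reads and the pull-downs 1060 and 2004, and without crosslinking the input held 125 and the pull-down 426. The mean level was 31.5 ± 0.357 RPM in the crosslinked inputs and 96.2 ± 43.0 RPM in the pull-downs (SD, n = 2 each), a ratio of 3.06. Pull-down 1 gave a ratio of 2.09, pull-down 2 a ratio of 4.02, and the non-crosslinked pair 3.66 (2.99 to 4.51). mir-5126 held 44.3% and 57.8% of the class in the crosslinked pull-downs and 29.1% and 28.0% in the inputs. Without it the ratio was 2.00 with and 3.51 without crosslinking. For the shares of both classes the two-sided exact permutation test gave p = 0.333, the smallest that 2 libraries against 2 allow, so no share could pass 0.05.

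Single members were then tested with the quasi-likelihood test of edgeR, fitted over the 39872 features that averaged 1 RPM or more across the 4 crosslinked libraries. Of the 94 members, 34 passed that limit (25 miRNA and 9 pri-miRNA), and a member that passed it through the pull-downs alone had to be higher there. At an adjusted p under 0.05 over all features, 5 miRNA members were called higher and 4 lower, and 6 pri-miRNA members higher and 2 lower (6 and 1 with TMM factors or DESeq2). The miRNA members called higher were 10 without crosslinked input 2, and 8 with a limit of 0.5 RPM. The pri-miRNA members called lower were 1 without crosslinked pull-down 1. The background was 6.41% of all features called higher and 3.47% called lower, 9.88% together. Of 17 tested Gm-numbered members, 1 was called higher and 4 lower, Gm47295 and Gm47299 among the latter. Of the 11 members called higher, 9 averaged only 0.0829 to 0.592 RPM in the inputs and so passed the limit through their pull-downs, miR-3963 and mir-5126 being the others. Their number is therefore no evidence about microRNAs as a group. The median edgeR log2 ratio of all features was -0.21, and with TMM factors it moved up by 0.20.

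**Figure D2:**
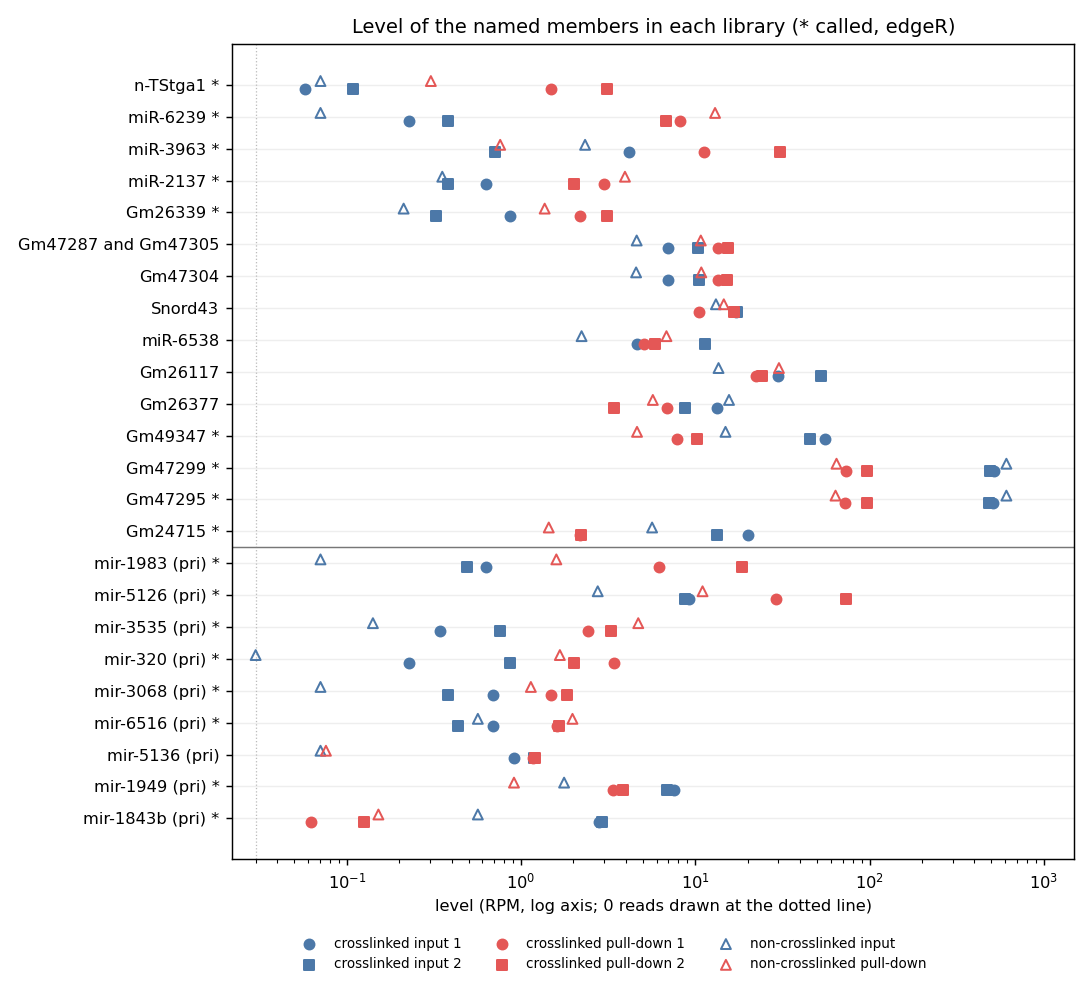
Level of 24 named members or pairs in each library (RPM, log axis), blue for inputs and red for pull-downs, filled for crosslinked and open for non-crosslinked libraries, ordered by edgeR log2 ratio within each class, with an asterisk where edgeR called the crosslinked difference. For miR-6239 the pull-downs stand at 6.82 to 13.0 RPM and the inputs at 0.0707 to 0.380 RPM; for Gm47299 the order is turned, with 64.7 to 97.2 RPM against 489 to 610 RPM.

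Among the members named as microRNAs and called higher, miR-6239 had the lowest adjusted p. Its level was 0.229 and 0.380 RPM in the crosslinked inputs and rose to 8.19 and 6.82 RPM in the pull-downs. Without crosslinking the input held 0.0707 RPM, a single read, and the pull-down 13.0 RPM, the highest of the 6 values. The level in the pull-downs was 24.6 times that of the inputs with crosslinking, and edgeR gave a log2 ratio of 4.67 (SE 0.261, adjusted p = 0.000355). Without crosslinking the ratio was 184 (95% interval 32.5 to 7300). All features of Gpc6, the gene around it, together went from 209 and 173 RPM to 162 and 120 RPM, with 0 of 18 tested features called in either direction.

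miR-2137 followed the same order at a lower level. It had 0.630 and 0.380 RPM in the inputs, 2.98 and 2.02 RPM in the pull-downs, and without crosslinking 0.353 and 3.95 RPM. The ratios were 4.95 with and 11.2 (4.50 to 35.9) without crosslinking, and the edgeR log2 ratio was 2.39 (SE 0.314, adjusted p = 0.00490). Its hairpin mir-2137 was counted apart and held few reads, 1 and 2 for input and 3 and 5 for pull-down with crosslinking, and 3 and 7 without.

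mir-3535, in the nucleolin gene Ncl, also stood highest in the non-crosslinked pull-down. Its levels were 0.344 and 0.760 RPM in the inputs, 2.42 and 3.29 RPM in the pull-downs, and without crosslinking 0.141 RPM (input) and 4.71 RPM (pull-down). The edgeR log2 ratio was 2.43 (SE 0.339, adjusted p = 0.00648), and the ratios were 5.17 with and 33.3 (8.84 to 281) without crosslinking. Without crosslinked input 2 the log2 ratio was 3.13. The summed features of Ncl stood at 106 and 91.9 RPM in the inputs and 91.0 and 81.5 RPM in the pull-downs, and of its 13 tested features 1 was called higher and 1 lower.

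mir-320, a hairpin known for skipping Drosha cleavage, had 0.229 and 0.869 RPM in the inputs and 3.41 and 2.02 RPM in the pull-downs. The non-crosslinked input had no read on it and the non-crosslinked pull-down 1.67 RPM, at least 7.88-fold over the 3-read floor of that input. Its edgeR log2 ratio was 2.36 (SE 0.477, adjusted p = 0.0292), and without crosslinked pull-down 1 the adjusted p was 0.0565. The log2 ratio was 3.63 without crosslinked input 2 and 1.71 without input 1. mir-6516, in the small RNA host gene Snhg20, had 0.687 and 0.434 RPM in the inputs and 1.61 and 1.64 RPM in the pull-downs (log2 ratio 1.62, SE 0.246, adjusted p = 0.00938). Without crosslinking it had 0.565 and 1.97 RPM. mir-3068, within Alkbh1, had 0.687 and 0.380 RPM in the inputs and 1.49 and 1.83 RPM in the pull-downs (log2 ratio 1.72, SE 0.294, adjusted p = 0.0151), and 0.0707 and 1.14 RPM without crosslinking. For each of these hairpins the pull-downs and inputs did not overlap.

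mir-5126 held the most reads of the pri-miRNA class. It had 9.22 and 8.74 RPM in the inputs, 29.2 and 73.2 RPM in the pull-downs, and without crosslinking 2.76 RPM (input) and 11.01 RPM (pull-down). The edgeR log2 ratio was 2.61 (SE 0.439, adjusted p = 0.0145), and 1.78 without crosslinked pull-down 2. The ratio was 3.25 for pull-down 1, 8.15 for pull-down 2 and 3.99 (2.79 to 5.85) without crosslinking. The Dner gene around it was higher in the pull-downs as well, at 3.07 and 3.55 RPM against 9.11 and 6.60 RPM over its 27 features, and both of its tested features, in intron 1, were called higher. The mature strand, miR-5126, which was counted in the miRNA class, held 7 and 6 reads in the inputs and 15 and 16 in the pull-downs.

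Of the 3 members that overlap tRNA genes, 2 were called higher by edgeR, against 6.41% of all tested features. DESeq2 called all 3 higher, and 2747 of the 39872 features in either direction. The 3 averaged only 0.0829 to 0.559 RPM in the inputs and so passed the limit through their pull-downs, and nothing is read from their number. In each of the 3 crosslinked pull-down 2 was over 2-fold above pull-down 1. mir-1983 had 0.630 and 0.489 RPM in the inputs and 6.205 and 18.4 RPM in the pull-downs (log2 ratio 4.54, SE 0.657, adjusted p = 0.00762), and its log2 ratio was 5.13 without pull-down 1 and 3.54 without pull-down 2. Without crosslinking it had 1 read in the input and 1.59 RPM in the pull-down, a ratio of 22.6 (3.63 to 933). Of the 5 tRNA-Ile-TAT features in the tRNA class, 4 were tested and each was called higher, with log2 ratios of 3.62 to 6.15. The best covered, tRNA-Ile-TAT-2-3, had 0.472 and 0.344 RPM in the inputs and 13.1 and 28.4 RPM in the pull-downs. n-TStga1, a serine tRNA gene, had 0.0573 and 0.109 RPM in the inputs and 1.49 and 3.13 RPM in the pull-downs (log2 ratio 4.76, SE 0.697, adjusted p = 0.00804). The inputs held 1 and 2 reads of it, so the size of that ratio is loosely fixed, and without crosslinked pull-down 2 it was 4.12 on the log2 scale. n-TSaga9, named after its values were seen, had 0.802 and 0.163 RPM in the inputs and 1.24 and 3.70 RPM in the pull-downs, with an adjusted p of 0.107 in edgeR and 0.00440 in DESeq2.

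miR-3963 and miR-5100 stood above both inputs with crosslinking, while without it the pull-down value was below the input, for miR-5100 within counting error. miR-3963 had 4.18 and 0.706 RPM in the crosslinked inputs and 11.3 and 30.8 RPM in the pull-downs. In the non-crosslinked libraries it was lower in the pull-down, at 0.759 RPM against 2.33 RPM in the input, a ratio of 0.326 (0.143 to 0.677). The edgeR log2 ratio was 3.22 (SE 0.758, adjusted p = 0.0498), close to the threshold, and the call was lost without crosslinked pull-down 2 (adjusted p = 0.0683), with TMM factors (0.0566) and with DESeq2 (0.0751). Its log2 ratio was 4.96 without crosslinked input 1 and 2.30 without crosslinked pull-down 2. miR-5100, named after its values were seen, had 0.802 and 0.109 RPM in the inputs and 1.92 and 6.82 RPM in the pull-downs, and 0.777 and 0.228 RPM without crosslinking. The latter were 11 and 3 reads, a ratio of 0.293 whose 95% interval (0.0525 to 1.11) includes 1. Its crosslinked log2 ratio of 3.36 (SE 0.865) had an adjusted p of 0.0666 in edgeR, above 0.05, so no difference is called for it.

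Pull-down 2 was above pull-down 1 in 26 of the 34 tested members, against 36.6% of all tested features, and by over 2-fold in 8 members, against 1.78% of the features. They were miR-3963, miR-5100, n-TSaga9, n-TStga1, Gm47306, mir-5126, mir-1983 and mir-1843b. For mir-1843b this was only 2 reads in pull-down 2 against 1 in pull-down 1. The ratio of pull-down 2 to pull-down 1 was 2.73 for miR-3963, 3.55 for miR-5100, 2.51 for mir-5126 and 2.97 for mir-1983. Its median was 2.17 over 260 tested tRNA features and 0.927 over all tested features. For miR-6239 it was 0.833 and for miR-2137 0.679.

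**Figure D3:**
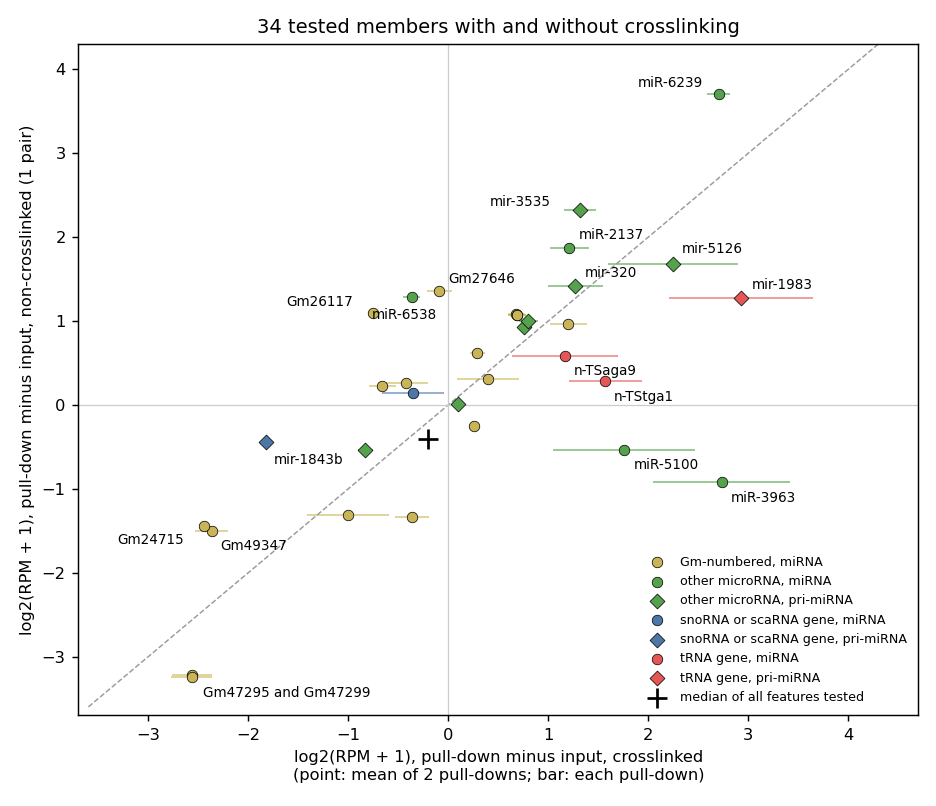
Log2(RPM + 1) of pull-down minus input for the 34 tested members, with crosslinking on the horizontal axis (point, mean of the 2 pull-downs; bar, each pull-down against the mean input) and without crosslinking on the vertical axis (1 pair); the dashed line marks equal ratios and the cross the median of all 39872 tested features (-0.20 and -0.41). miR-6239 and mir-3535 lie above the line, miR-3963 and miR-5100 at right below 0, and Gm47295 and Gm47299 at lower left.

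The lower calls included the most abundant features. Gm47299 had 517 and 489 RPM in the inputs and 73.4 and 97.2 RPM in the pull-downs (log2 ratio -2.47, SE 0.225, adjusted p = 0.000977), and 610 and 64.7 RPM without crosslinking. The values of Gm47295 were 513, 488, 72.3, 96.7, 610 and 63.8 RPM in the same order (log2 ratio -2.47, adjusted p = 0.00101). Input over pull-down was 5.90-fold for Gm47299 with crosslinking and 9.44-fold without. Gm49347 fell from 55.5 and 45.8 RPM to 7.88 and 10.2 RPM (log2 ratio -2.39, SE 0.214, adjusted p = 0.000901), with 14.9 and 4.63 RPM without crosslinking. Gm24715 fell from 20.1 and 13.3 RPM to 2.17 and 2.21 RPM (log2 ratio -2.83, SE 0.251, adjusted p = 0.000866), with 5.65 and 1.44 RPM without crosslinking.

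Other Gm-numbered members went both ways. Gm26339 was called higher, with 0.859 and 0.326 RPM in the inputs and 2.17 and 3.10 RPM in the pull-downs (log2 ratio 2.24, SE 0.378, adjusted p = 0.0145), and 0.212 and 1.37 RPM without crosslinking. Its log2 ratio was 3.06 without crosslinked input 1. Gm47304, Gm47287 and Gm47305, whose counts differed by at most 1.04% in any library, had 6.98 and 10.4 to 10.5 RPM in the inputs and 13.4 to 13.5 and 15.3 RPM in the pull-downs. Their adjusted p was 0.0908 to 0.0962, and 0.0218 to 0.0221 without crosslinked input 2. Gm26377 had 13.4 and 8.72 RPM in the inputs and 6.86 and 3.43 RPM in the pull-downs, with an adjusted p of 0.139, which became 0.0166 without crosslinked input 2 and 0.0205 without crosslinked pull-down 1. Snord43 had 17.1 and 17.3 RPM in the inputs and 10.5 and 16.6 RPM in the pull-downs, and its adjusted p was 0.596.

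Pri-miRNA members that overlap snoRNA or scaRNA genes were set beside those RNAs. mir-1843b fell from 2.81 and 2.93 RPM to 0.0620 and 0.126 RPM, the latter being 1 and 2 reads (log2 ratio -4.74, SE 0.306, adjusted p = 0.000376). Without crosslinking it had 0.565 RPM in the input and 0.152 RPM in the pull-down. Scarna3a, counted in its own class, fell from 7.33 and 8.42 RPM to 0.931 and 2.40 RPM (log2 ratio -2.15, SE 0.356, adjusted p = 0.0136). mir-3084-2, whose hairpin contains the Snora19 gene, and which is identical in counts to mir-3084-1, held 11 and 8.5 reads in the inputs and 3.5 and 5 in the pull-downs, too few to be tested. Snora19 fell from 35.4 and 31.2 RPM to 3.66 and 10.4 RPM (adjusted p = 0.0304). mir-664, whose hairpin overlaps Snora36b in part and runs past its end, had no read in the inputs and 8 and 2 in the pull-downs, while Snora36b fell from 8.36 and 8.80 RPM to 1.12 and 2.72 RPM (adjusted p = 0.0129). mir-1291, which overlaps Snora34 in part, held 3 and 4 reads in the inputs and 3 and 0 in the pull-downs, and Snora34 had 20.7 and 23.2 RPM and 8.81 and 13.1 RPM, with an adjusted p of 0.0602. mir-1949, in the host gene Snhg4, fell from 7.50 and 6.84 RPM to 3.35 and 3.85 RPM (log2 ratio -0.90, SE 0.162, adjusted p = 0.0188). Its adjusted p was 0.0645 without crosslinked pull-down 1 and 0.0515 with TMM factors, and DESeq2 gave 0.786. mir-5136 stood at 0.916 and 1.19 RPM in the inputs and 1.18 and 1.20 RPM in the pull-downs, and its adjusted p was 0.668.

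Whether crosslinking changed the ratio was tested as an interaction over all 6 libraries, in which the lone non-crosslinked libraries were assumed to vary like the others. edgeR called 0 of the 34 tested members and 0 of all 39872 features. At an unadjusted p under 0.05, the ratio was larger with crosslinking in 2 members and smaller in 5, against 11.6% and 2.03% of all features. The median difference over all features was 0.56 on the log2 scale, and it was -0.01 with TMM factors. Larger with crosslinking were miR-3963 (4.72, unadjusted p = 0.0290) and Gm24105 (1.51, unadjusted p = 0.0430). Smaller were miR-6239 (-2.80), mir-3535 (-2.65), Gm26117 (-2.01), miR-6538 (-2.17) and Gm27646 (-2.45), with unadjusted edgeR p-values from 0.00770 to 0.0322. DESeq2 called miR-3963 larger (adjusted p = 0.0330, against 0.0401% of all features) and Gm26117 smaller (adjusted p = 0.0153, against 0.484%, or 0.524% in either direction), and gave an adjusted p for only 13 of the 34 members. Gm26117 had 29.9 and 53.0 RPM in the crosslinked inputs and 22.4 and 24.04 RPM in the pull-downs, and 13.6 and 30.2 RPM without crosslinking. miR-6538 had 4.61 and 11.4 RPM in the inputs and 5.09 and 5.85 RPM in the pull-downs, and 2.23 and 6.83 RPM without crosslinking. For miR-6538 the crosslinked log2 ratio of -0.47 became 0.36 without crosslinked input 2, and without crosslinked input 1 it was -0.99 with an adjusted p of 0.0265. For Gm26117 leaving out crosslinked input 1 gave an adjusted p of 0.0346.

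Without crosslinking, 23 of the 34 tested members were above input, against 15.7% of all tested features, and 20 were so by at least 2-fold. Of the 11 members called higher, 10 were at least 2-fold over input without crosslinking, and miR-3963 was the exception. Of all tested features called higher, 87.0% were at least 2-fold over input there, and of all tested features 7.36% were. All 6 members called lower were also below input without crosslinking, as were 97.2% of all features called lower. These counts cover members kept by the limit on the crosslinked level, which favours those high in the pull-downs. Over all 94 members, the median log2(RPM + 1) ratio was 0.18 with and 0.05 without crosslinking for the miRNA class, and 0.21 and 0.11 for the pri-miRNA class.

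The 60 members below the limit of the test held few reads each, and their values are given as reads. Among the pri-miRNA members, mir-5099 held 1 and 1 reads (inputs) and 21 and 33 (pull-downs) with crosslinking, and 0 and 3 without. mir-1961, the locus with a let-7 seed, had 2 and 5 reads, 12 and 24 reads, and 1 and 11 reads in the same order. mir-5119, within Cdk12, ran the other way, with 8 and 10 reads in the inputs and none in either pull-down, at least 5.33-fold lower against a floor of 3 reads over both pull-downs, and 5 and 0 reads without crosslinking. Among the miRNA members, miR-7654-5p, within Arglu1, had 1 and 8 reads in the inputs and 43 and 8 in the pull-downs, so that pull-down 1 alone was high. Over all 94 members, both crosslinked pull-downs lay above both inputs in 49, below them in 20 and overlapped in 25. No share over all features of at least 10 reads stands beside these counts, so nothing is read from them. Of the 34 tested, 18 lay above and 11 below (all tested features, 10.8% and 57.7%), and nothing is read from this, since members low in the inputs were kept only where the pull-downs lay above.

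MicroRNAs of known families were rare in every library but were found mostly in the pull-downs. The cluster of miR-302 and miR-367, typical of pluripotent cells, had 10 features over both classes, with 0 and 3 reads for the inputs and 27 for each crosslinked pull-down. Its level was 0.0814 ± 0.115 RPM in the inputs and 1.69 ± 0.0218 RPM in the pull-downs (SD, n = 2 each), a ratio of 20.8 (95% interval 6.56 to 101). Without crosslinking it held 0 and 18 reads, at least 6.45-fold over the 3-read floor. miR-302b-3p had no read in any input, 7 and 6 in the crosslinked pull-downs and 3 without crosslinking, at least 4.86-fold with crosslinking against 3 reads over both inputs. miR-367-3p had 4 and 8 reads in the pull-downs and 3 without crosslinking, and miR-302d-3p had 5, 2 and 3. Larp7, the gene around the cluster, had 4.91 and 6.61 RPM in the inputs and 5.43 and 3.66 RPM in the pull-downs, groups that overlapped.

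The miR-17/92, miR-106a, miR-363 and miR-106b/25 clusters, which promote proliferation, held 9 and 6 reads in the inputs, 28 and 45 in the pull-downs, and 1 and 11 without crosslinking, a crosslinked ratio of 5.45 (3.11 to 10.3). Of their 34 features, mir-92a-2 alone had at least 10 reads, with none in the crosslinked inputs, 3 and 6 in the pull-downs, and 1 and 1 without crosslinking. The miR-290 to miR-295 cluster held 2 and 0 reads in the inputs, 6 and 13 in the pull-downs, and 0 and 4 without crosslinking. The microRNAs of the Sfmbt2 intron held 1 and 3 reads in the inputs, 13 and 20.4 in the pull-downs, and 0 and 0.8 without crosslinking. The imprinted Dlk1-Dio3 cluster held 2 and 1, 9 and 12, and 3 and 3 reads in the same order. The let-7 family, whose mature forms mark differentiated cells, was the exception among the lists. It had 8 and 6 reads in the inputs, 0 and 2 in the pull-downs, and 0 and 1 without crosslinking. Most of its input reads lay on hairpins counted as pri-miRNA, let-7d with 3 and 3 and let-7g with 4 and 2, and not on mature strands. The miR-15/16 family had 0 and 0 reads in the inputs and 1 and 4 in the pull-downs, the miR-200 family no read in any library, and the microRNAs of other cell types 0 and 0 reads in the inputs and 4 and 2 in the pull-downs. None of these features reached the limit of the test. For each list with reads the exact permutation p was 0.333.

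**Figure D4:**
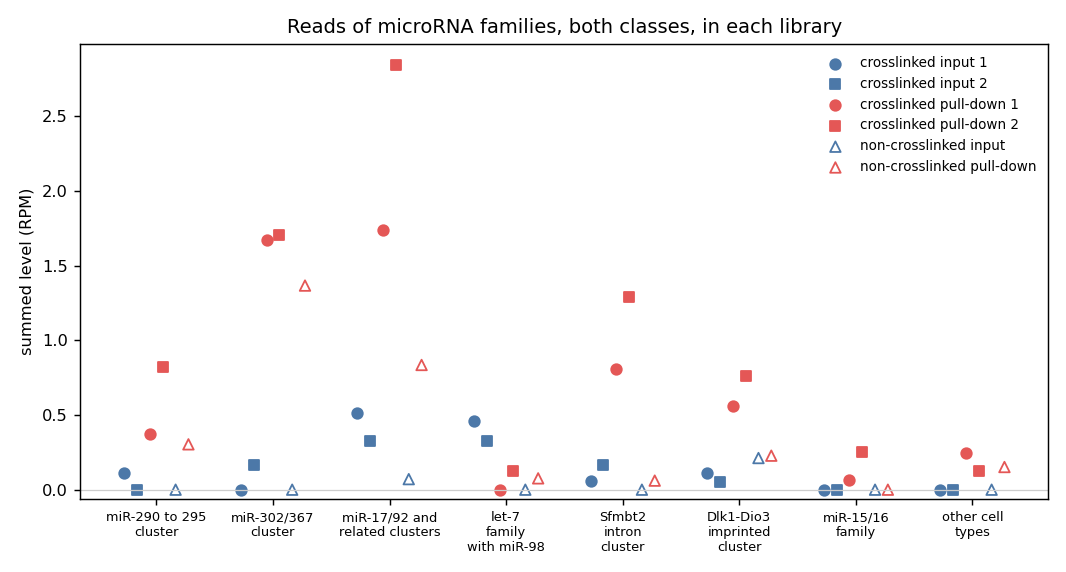
Summed level (RPM) of each microRNA family or cluster in the 6 libraries, both classes together; symbols as in the key, blue for inputs and red for pull-downs. The miR-302 and miR-367 cluster stands at 1.67 to 1.71 RPM with and 1.37 RPM without crosslinking in the pull-downs, and let-7 with miR-98 is the list in which both crosslinked inputs lie above both pull-downs.

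Transcripts of the genes that make and use microRNAs were called about as often as pre-mRNA features in general, so the counts are no result about the pathway. Of 25 genes, 17 had a pre-mRNA feature above the limit, and edgeR called 0 higher and 3 lower, near the 0.469% and 11.4% of all 2561 tested pre-mRNA features. Before adjustment, 0 genes stood higher and 9 lower at a p under 0.05, and DESeq2 called 0 in either direction. The median log2 ratio was -0.57, beside -0.52 for all tested pre-mRNA features. Dicer1, the cytoplasmic nuclease, fell from 4.29 and 4.56 RPM to 1.86 and 2.40 RPM (log2 ratio -0.96, SE 0.185, adjusted p = 0.0243). Tut4, a uridylyl transferase that acts on let-7 precursors, fell from 6.07 and 6.03 RPM to 2.92 and 3.03 RPM (log2 ratio -0.93, SE 0.152, adjusted p = 0.0125). Ddx17, a helicase of the Drosha complex, fell from 6.47 and 5.21 RPM to 3.29 and 2.91 RPM (log2 ratio -0.82, SE 0.177, adjusted p = 0.0371). Drosha itself had 5.15 and 4.51 RPM in the inputs and 3.16 and 2.65 RPM in the pull-downs, with an adjusted p of 0.0721. The count of lower genes was 5 without crosslinked input 2 and 1 without crosslinked pull-down 1.

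The authors' deposited table of enrichment, with a formula the sources used here do not give, lists 41 features of these classes, all of them among the 94 members. In the authors' deposited table the highest ratios of these were 73.0 for miR-5100, 57.6 for n-TStga1, 51.4 for miR-3963, 47.4 for miR-7654-5p, 28.6 for Gm22201 and 26.0 for mir-1983. The authors' deposited table gives 8.60 for mir-5126, 1.99 for mir-6516, 0.264 for both Gm47295 and Gm47299 and 0.0385 for Gm49347. Values below 1 in the authors' deposited table also stand beside members with both crosslinked pull-downs above both inputs, namely 0.780 for Gm26339, which edgeR called higher, 0.907 for miR-5126 and 0.555 for Gm49346. miR-6239, miR-2137, mir-3535, mir-320, mir-1843b and mir-3068 are not among the 41 features of the authors' deposited table. Of the 41, 29 lie above 1 in the authors' deposited table (median 1.70), beside 74.6% of its 216085 features (median 1.37).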

How the data were processed

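The authors deposited, per library, the expected counts of annotated features, fractional where a read matched several of a class, and the same values in RPM of all reads, unannotated ones included. A table the authors deposited gives 1 enrichment ratio per feature. The submitters' processing notes name bcl2fastq 2.19, STAR 2.5.2b, bedtools 2.29.0 and mm10, without roles. Duplicate removal and strand are not given in the sources used here, so antisense and overlapping RNAs cannot be told apart. Unannotated reads, 6.99% to 14.4% of a library, stayed out of library sizes and tests.

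Expected counts were rounded and tested with edgeR 4.0.16 (quasi-likelihood, R 4.3.3, library size the annotated reads, no factors, Benjamini-Hochberg over all tested features). The interaction used all 6 libraries. DESeq2 1.42.0 was an alternative. Ratios of RPM are plain means. Descriptive medians used log2 values of the deposited RPM plus a pseudocount of 1, which understates low members. Intervals of ratios are exact binomial at 95%. The floor was 3 reads. The fits were also run on simulated counts, with an outcome not reported here.

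The members, lists and rules were chosen with earlier results of these data known. The rule named, per class, the 12 tested members with most reads and up to 5 called per direction without overlap. Alternatives were other filters, scalings and pseudocounts, identical features counted once, a replicate block and each crosslinked library left out. Leaving out Gm47295 and Gm47299 or all Gm-numbered features, and keeping only features named as microRNAs, with or without miR-3963 and miR-6239, were added after seeing the data.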

Additional observations from a re-analysis of the deposited data

Results flagged for a closer look

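In 7 of the 34 tested members (20.6%), the crosslinked pull-downs and inputs did not overlap and the non-crosslinked pair ran against both crosslinked pull-downs. Of all 39872 tested features, 4.96% did so. The opposite signs themselves were not tested, and the interaction test of edgeR called 0 of them, with an unadjusted p under 0.05 for Gm26117 and miR-3963. On the log2(RPM + 1) scale the non-crosslinked ratio was 1.096 for Gm26117, 0.14 for Snord43, 0.26 for Gm26384 and 0.22 for Gm24951, each lower in both crosslinked pull-downs. It was -0.92 for miR-3963, -0.53 for miR-5100 and -0.26 for Gm25745, each higher in both crosslinked pull-downs. The 95% interval of the non-crosslinked RPM ratio included 1 for Snord43, Gm26384, Gm24951, Gm25745 and miR-5100, so for these the sign is within counting error. Gm24951 rested on 0.583 and 2.83 reads without crosslinking and Gm26384 on 4.08 and 7.17.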

How the results depend on the processing

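With no filter on low values (942601 features) edgeR called 0 features in all, and so 0 miRNA and pri-miRNA members and pathway genes in either direction, with 41845 features at an unadjusted p under 0.05. At a mean of at least 0.5 RPM 8 miRNA members were called higher, and without the Gm-numbered features, an alternative chosen after seeing the data, 0 were called lower. The pri-miRNA members called lower were 1 with DESeq2 and 1 with TMM factors. The pathway genes called lower were 0 with DESeq2, 1 with TMM factors and 5 with unannotated reads in the library sizes. DESeq2 called 1 member with a larger and 1 with a smaller ratio under crosslinking. Leaving out 1 crosslinked library at a time gave 4 to 10 miRNA members called higher (10 without input 2) and 4 to 6 lower, 5 to 6 pri-miRNA members higher and 1 to 2 lower, 0 to 1 interaction calls larger and 0 to 2 smaller (2 without input 1), and 1 to 5 pathway genes lower. The crosslinked log2 ratio then ran from -0.63 to 0.057 for Snord43 and from -0.99 to 0.36 for miR-6538, the 2 whose sign turned among the named members, the only ones for which it was followed. The crosslinked median of the miRNA members was 0.27 and 0.46 with pseudocounts of 0.5 and 0.1 RPM, 0.51 over features named as microRNAs and 0.076 to 0.205 with 1 library left out. Without crosslinking it was 0.15 with a pseudocount of 0.1 RPM, 0.28 over tested members and 0.30 over features named as microRNAs. For the pri-miRNA members the crosslinked median was 0.36 and 0.91 with these pseudocounts, 0.80 over tested members, 0.24 with unannotated reads left out of the total and 0.18 to 0.26 with 1 library left out. Without crosslinking it was 0.20 and 0.81 with these pseudocounts and 1.00 over tested members. The ratio of the miRNA class turned above 1 over features named as microRNAs, at 3.77 with and 4.94 without crosslinking (2.06 and 4.42 without miR-3963 and miR-6239), and at 1.43 without crosslinking once Gm47295 and Gm47299 were left out. With the replicate number as a block edgeR called 6 miRNA members higher and 6 lower, 5 pri-miRNA members higher and 2 lower, 0 interactions and 4 pathway genes lower, and the calls of miR-3963 (adjusted p = 0.128), mir-320 (0.0766) and Gm26339 (0.05005) were lost while Gm26377 (0.0244), Gm24951 (0.0294) and Gm47304 with Gm47287 and Gm47305 (0.0459 to 0.0497) were gained, but nothing in the labels pairs the libraries and there were only 2 pairs (correlation of deviations 0.11 over all tested features and -0.31 over the 34 tested members). The causes of these shifts were not tested. With 1 non-crosslinked pair and 60 of 94 members below the limit of the test, depth and replication limit the comparison of crosslinking.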
